A study of Mus musculus with 35 samples.

Results

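Genes of the meiotic chromosome axis and of synapsis were followed through total RNA-seq of mouse embryonic stem cells (ESCs) after deletion of *Dnmt1*, whose product copies DNA methylation onto newly replicated DNA. The 10 genes were taken by name from the 26127 genes of the deposited table: *Sycp1*, *Sycp2*, *Sycp3*, *Syce1*, *Syce2*, *Hormad1*, *Stag3*, *Smc1b*, *Rec8* and *Stra8*. They were selected on their function with earlier results of these data known, and the values that chose them were their KO minus WT differences by day, including a lower *Sycp3*, so all differences between knockout and control for these 10 genes are given as a description, without a test. There were 17 WT and 17 *Dnmt1* KO libraries, sampled on days 0, 1, 3, 6, 9, 11, 17 and 25 with 2 libraries for each genotype and day and 3 at day 1. A single library came from *Dicer* KO cells. The cells carried loxP-flanked *Dnmt1* alleles, and Cre was induced with tamoxifen in serum and LIF, with or without feeder cells. The labels call all control libraries wildtype with E14 as the background strain, whereas the methods of the study name C57BL/6 for the floxed line; whether control cells also received tamoxifen is not given in the sources used here. The *Dicer* KO line was derived with CRISPR from the same floxed cells by growing single-cell colonies. The series calls the libraries of a group biological replicates, but nothing states separate cultures, so all spreads and p-values measure only the difference between these libraries.

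In meiotic prophase the sister chromatids of each chromosome are held along a protein axis, and the axes of homologous chromosomes are zipped together by the synaptonemal complex. SYCP2, SYCP3 and HORMAD1 are proteins of the axis, SYCP1 forms the transverse filaments between axes, and SYCE1 and SYCE2 belong to the central element. STAG3, SMC1B and REC8 are meiosis-specific subunits of cohesin, and STRA8 is the retinoic acid-responsive factor that opens the meiotic programme. Many genes of this programme have CpG-rich promoters that are methylated in somatic cells and lose methylation in the germline. ESCs do not enter meiosis in culture, so their levels of these RNAs are usually low.

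Promoters are shown because DNA methylation acts on CG dinucleotides. The 4 genes chosen kept KO on the same side of WT, without overlap, at days 3, 9, 11, 17 and 25. Each line holds the 250 bases before a transcription start in RefSeq (GRCm38.p6), 5′ to 3′ on the gene's strand, with every CG in capitals. Each sequence was also found once in build NCBIM37, the build of the files, and the coordinates given are of that build. The *Sycp3* sequence (chr10:87922082-87922331, plus strand) runs 18 bases past the start of the gene as GENCODE places it. The others end at the annotated start of *Hormad1* (chr3:95363349-95363598, plus strand), *Sycp1* (chr3:102740024-102740273, minus strand) and *Smc1b* (chr15:84962388-84962637, minus strand).
*Sycp3*: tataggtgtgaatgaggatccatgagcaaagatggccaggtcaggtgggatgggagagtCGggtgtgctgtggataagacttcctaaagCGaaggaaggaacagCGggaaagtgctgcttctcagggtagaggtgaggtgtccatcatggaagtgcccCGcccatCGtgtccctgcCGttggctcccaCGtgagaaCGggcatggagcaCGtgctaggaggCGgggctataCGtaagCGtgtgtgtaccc
*Hormad1*: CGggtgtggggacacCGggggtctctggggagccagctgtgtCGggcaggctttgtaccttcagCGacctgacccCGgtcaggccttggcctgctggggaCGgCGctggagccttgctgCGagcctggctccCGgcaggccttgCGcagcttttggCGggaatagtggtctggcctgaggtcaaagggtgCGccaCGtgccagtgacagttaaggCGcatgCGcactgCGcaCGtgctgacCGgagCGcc
*Sycp1*: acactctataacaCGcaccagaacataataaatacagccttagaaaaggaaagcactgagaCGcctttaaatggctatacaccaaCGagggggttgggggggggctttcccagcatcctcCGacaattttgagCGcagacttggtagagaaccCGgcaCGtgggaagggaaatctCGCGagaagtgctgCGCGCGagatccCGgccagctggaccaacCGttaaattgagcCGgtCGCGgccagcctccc
*Smc1b*: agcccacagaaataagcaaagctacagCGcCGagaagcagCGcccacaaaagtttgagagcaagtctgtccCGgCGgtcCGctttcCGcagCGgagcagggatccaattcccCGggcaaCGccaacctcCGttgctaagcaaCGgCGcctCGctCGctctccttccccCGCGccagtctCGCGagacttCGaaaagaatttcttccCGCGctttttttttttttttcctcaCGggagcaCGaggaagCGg

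Capitals are densest in the *Smc1b* promoter, with 25 CG in the 250 bases, against 19 for *Hormad1*, 17 for *Sycp1* and 12 for *Sycp3*. *Stra8*, whose mean difference exceeded that of *Sycp1* but whose groups overlapped at day 25, is not shown and had 5 CG before a RefSeq start that lies 785 bases from the gene start in GENCODE. With the 50 bases after the start added, the 12 RefSeq promoter windows of the 10 genes held between 10 and 33 CG, all above the median of 7 over 32851 mouse windows of the same length. The fewest were in the windows of *Sycp2* and *Stra8*, with 10 each, and the most in 1 of the 2 windows of *Syce2*. At least 10 CG were held by 43.5% of all windows, and at least 33 by 8.6%. A pair of short sequences was searched on both strands: GCGGGAA, the core recognised by E2F6, and CACGTG, the E-box recognised by MGA with MAX. These are DNA-binding members of a Polycomb complex, PRC1.6, that holds germline genes silent in ESCs. GCGGGAA occurred in 6 of the 12 windows and in 4.6% of all windows. Its first base lay at position -147 from the start in *Sycp3*, -95 in *Hormad1* and -48 in *Smc1b*, and it was not among the letters of the *Sycp1* window. CACGTG also occurred in 6 of the 12, against 7.2% of all, at position -94 in *Sycp1* and at more than one position in *Sycp3* and *Hormad1*, and the matches of the pair did not overlap. The *Hormad1* windows are offset by 2 bases and so count the same matches again. Each of these sequences holds a CG, and the share over all windows was not matched for CG content. A match describes letters and not a bound site.

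RNA levels are in RPKM, where reads are scaled by exon length in kilobases and by the mega-reads sequenced, which allow levels to be compared between genes. *Dnmt1* RNA followed the labels at days 3, 9, 11, 17 and 25, with 14.1 to 34.8 RPKM in WT and 2.58 to 4.40 RPKM in KO. At day 0 it was no lower in KO, with 18.3 and 18.4 RPKM in WT and 18.7 and 18.5 RPKM in the libraries labelled KO. At day 1 it had fallen to 2.86 and 3.04 RPKM in the first and second KO libraries but was at 8.13 RPKM in the third, against 17.9 to 19.5 RPKM in WT. At day 6 it went against them, with 3.22 to 3.40 RPKM in the libraries labelled WT and 20.2 to 20.4 RPKM in those labelled KO, so day 6 is described as labelled and left out of means over days. Libraries held 24.3 to 72.1 mega-reads. Exons of genes took a share of the reads of 20.7% to 22.4% in 20 libraries (days 0, 3, 6 and 9 and the first and second pairs of day 1) and 44.7% to 49.9% in 15 (days 11, 17 and 25, the third pair of day 1 and *Dicer* KO). Levels compared across these low-share and high-share libraries cannot be told apart from that difference. All 7 ESC markers (*Pou5f1*, *Sox2*, *Nanog* and others) reached 1 RPKM or more in WT, KO and *Dicer* KO libraries, spermatid markers summed to at most 0.281 RPKM with *Prm2* at 0 in all WT and KO libraries, and gonadal support cell markers to at most 2.25 RPKM with *Fshr* at 0. Fibroblast markers, the cell type of feeders, differed between genotypes. They summed to 13.1 to 13.5 RPKM in KO and 7.59 to 8.44 RPKM in WT at day 3, and to 17.8 to 19.99 against 9.28 to 10.5 RPKM at day 9. At day 11 KO was the lower, with 2.22 to 2.28 against 3.57 to 3.88 RPKM, and at day 17 the higher, with 1.73 to 1.92 against 1.39 to 1.49 RPKM. The groups overlapped at day 25, and at day 6 the libraries labelled KO had 5.72 to 6.03 RPKM against 10.2 to 12.7 RPKM. The part of these cells in the differences between KO and WT was not tested.

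**Figure D1:**
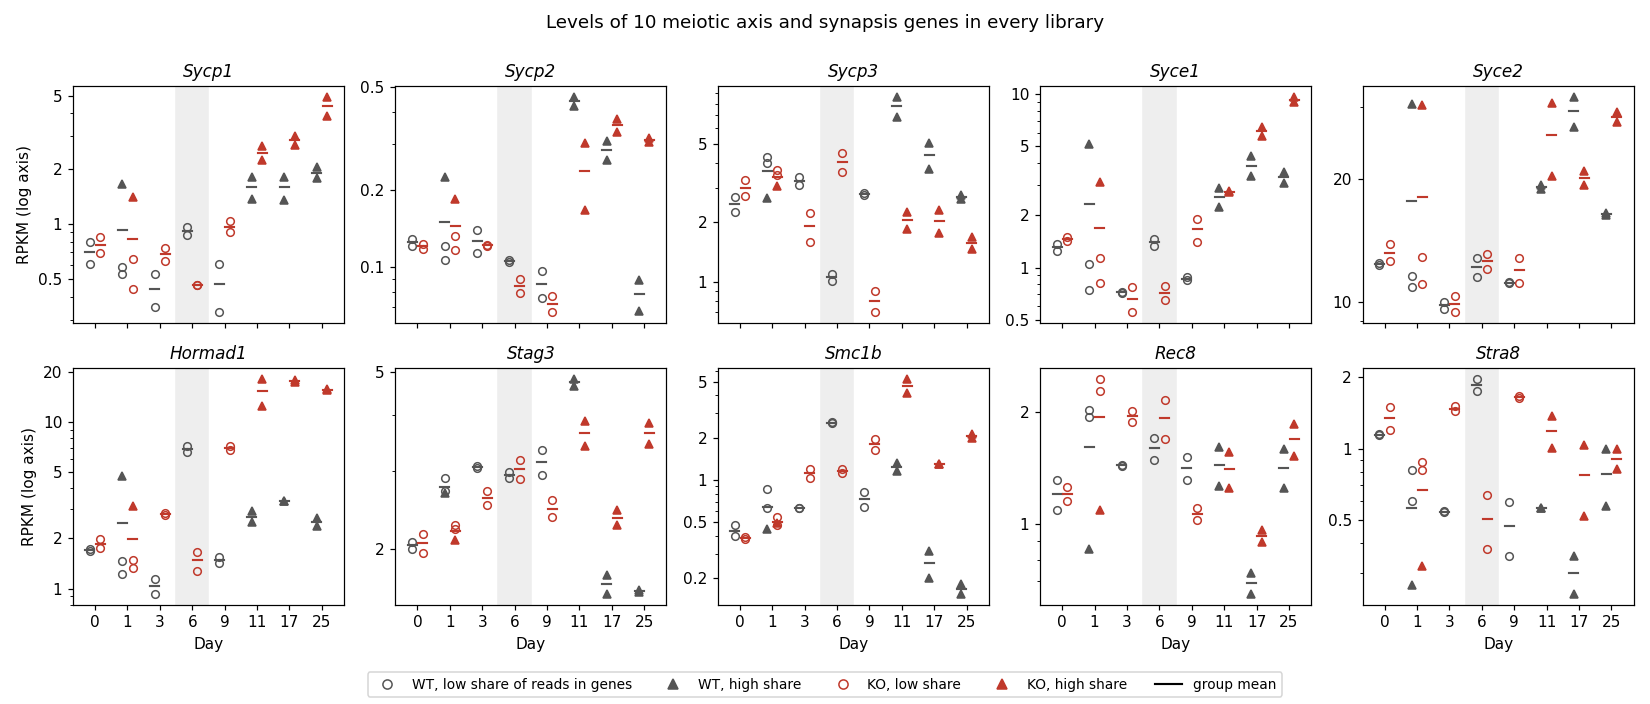
RPKM (log axis) of the 10 genes by day in every WT (grey) and KO (red) library, open circles for low-share and filled triangles for high-share libraries, horizontal lines for group means, day 6 shaded because *Dnmt1* RNA contradicted its labels. *Sycp3* lay lower in KO, and *Sycp1*, *Hormad1* and *Smc1b* lay higher in KO, at each of days 3, 9, 11, 17 and 25.

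*Sycp3*, which builds the lateral elements of the synaptonemal complex, was lower in KO than in WT at each of days 3, 9, 11, 17 and 25. The gene (ENSMUSG00000020059.3) lies on chromosome 10 from 87922314 to 87935981 on the plus strand. WT libraries had 3.38 and 3.09 RPKM at day 3, 2.74 and 2.83 at day 9, 8.66 and 6.80 at day 11, 5.08 and 3.72 at day 17, then 2.74 and 2.62 at day 25. KO libraries had 2.24 and 1.59 RPKM at day 3, 0.900 and 0.702 at day 9, 2.26 and 1.85 at day 11, 1.76 and 2.30 at day 17, then 1.46 and 1.68 at day 25. The groups did not overlap at any of these days, which held for 1.71% of the 11615 genes tested in this direction. On the log2(RPKM + 0.1) scale the KO minus WT difference averaged -1.22 (SE 0.10) over the 5 days, and it was largest at day 11, at -1.86 (SE 0.224). At day 0 *Sycp3* had 2.27 and 2.70 RPKM in WT and 3.27 and 2.74 RPKM in KO, so KO was then slightly higher without overlap. At day 1 the groups overlapped, with 2.67 to 4.27 RPKM in WT and 3.06 to 3.69 in KO. In the libraries labelled WT at day 6 *Sycp3* had 1.09 and 1.01 RPKM and in those labelled KO 3.62 and 4.50 RPKM, so the lower value stood again with the lower *Dnmt1* RNA. In bulk RNA, fewer cells that express a gene and less RNA per cell cannot be told apart.

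*Sycp3* shares 660 of its 1264 exon bases with *Chpt1*, a phospholipid synthesis gene on the opposite strand, and whether the counting used strand is not given in the sources used here. *Chpt1* had 0.574 and 0.568 RPKM in WT and 0.519 and 0.516 RPKM in KO at day 9. At day 11 it had 1.91 and 1.48 RPKM in WT and 1.95 and 1.23 RPKM in KO. At day 17 it had 1.48 and 1.47 RPKM in WT and 1.66 and 1.62 RPKM in KO. At day 25 it had 0.872 and 0.881 RPKM in WT and 1.09 and 1.19 RPKM in KO. *Chpt1* was thus lower in KO at day 9 and higher at days 17 and 25, and the groups overlapped at days 3 and 11. Its part in the *Sycp3* values was not tested.

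*Hormad1* stood furthest above WT by its mean over the 5 days. It encodes an axis protein that marks unsynapsed chromosomes, and lies on chromosome 3 from 95363599 to 95391593 on the plus strand (ENSMUSG00000028109.8). WT libraries had 0.928 and 1.14 RPKM at day 3, 1.42 and 1.55 at day 9, 2.92 and 2.49 at day 11, 3.34 and 3.34 at day 17, then 2.66 and 2.37 at day 25. KO libraries had 2.85 and 2.76 RPKM at day 3, 6.76 and 7.22 at day 9, 18.2 and 12.4 at day 11, 17.4 and 17.8 at day 17, then 15.7 and 15.5 at day 25. Every KO library was thus above both WT libraries of its day, and at days 11, 17 and 25 every KO library was above every WT library of those 3 days. The difference averaged 2.18 (SE 0.180) over the 5 days, from 1.36 at day 3 to 2.59 at day 25 (SE 0.402 each).

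*Smc1b*, the meiotic counterpart of the cohesin subunit *Smc1a*, was also higher in KO on all 5 days. It lies on chromosome 15 from 84895121 to 84962387 on the minus strand (ENSMUSG00000022432.6). WT libraries had 0.635 and 0.631 RPKM at day 3, 0.641 and 0.825 at day 9, 1.32 and 1.16 at day 11, 0.201 and 0.316 at day 17, then 0.181 and 0.155 at day 25. KO libraries had 1.04 and 1.19 RPKM at day 3, 1.64 and 1.95 at day 9, 5.26 and 4.13 at day 11, 1.3 and 1.3 at day 17, then 2.00 and 2.12 at day 25. Its level in KO thus peaked at day 11, while its distance from WT was widest at day 25, where the KO mean was 12.2 times the WT mean. The difference averaged 1.75 (SE 0.0921) and rose in size from 0.73 at day 3 to 3.01 at day 25 (SE 0.206 each).

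*Sycp1*, the transverse filament gene, was higher in KO on the same 5 days with a smaller distance. It lies on chromosome 3 from 102622422 to 102740023 on the minus strand (ENSMUSG00000027855.8). WT libraries had 0.535 and 0.352 RPKM at day 3, 0.330 and 0.605 at day 9, 1.36 and 1.81 at day 11, 1.35 and 1.81 at day 17, then 1.78 and 2.03 at day 25. KO libraries had 0.739 and 0.625 RPKM at day 3, 1.03 and 0.900 at day 9, 2.67 and 2.22 at day 11, 3.02 and 2.68 at day 17, then 3.89 and 4.93 at day 25. The difference averaged 0.82 (SE 0.179), reaching 1.16 (SE 0.401) at day 25. KO above WT without overlap on all 5 days held for 7.98% of all genes tested, and among the 10 genes for *Sycp1*, *Hormad1* and *Smc1b*. Since the choice of genes used this contrast, nothing is read from that count.

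*Stra8*, at chromosome 6 from 34870163 to 34889342 on the plus strand (ENSMUSG00000029848.4), differed early and no longer at day 25. WT libraries had 0.544 and 0.541 RPKM at day 3, 0.353 and 0.594 at day 9, 0.564 and 0.563 at day 11, 0.244 and 0.354 at day 17, then 0.998 and 0.573 at day 25. KO libraries had 1.44 and 1.52 RPKM at day 3, 1.64 and 1.67 at day 9, 1.38 and 1.01 at day 11, 0.520 and 1.04 at day 17, then 0.821 and 0.996 at day 25. Only at day 25 among these days did the groups overlap. The difference was 1.29 at day 3, 1.64 at day 9 and 0.22 at day 25 (SE 0.396 each), with an average of 1.04 (SE 0.177).

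**Figure D2:**
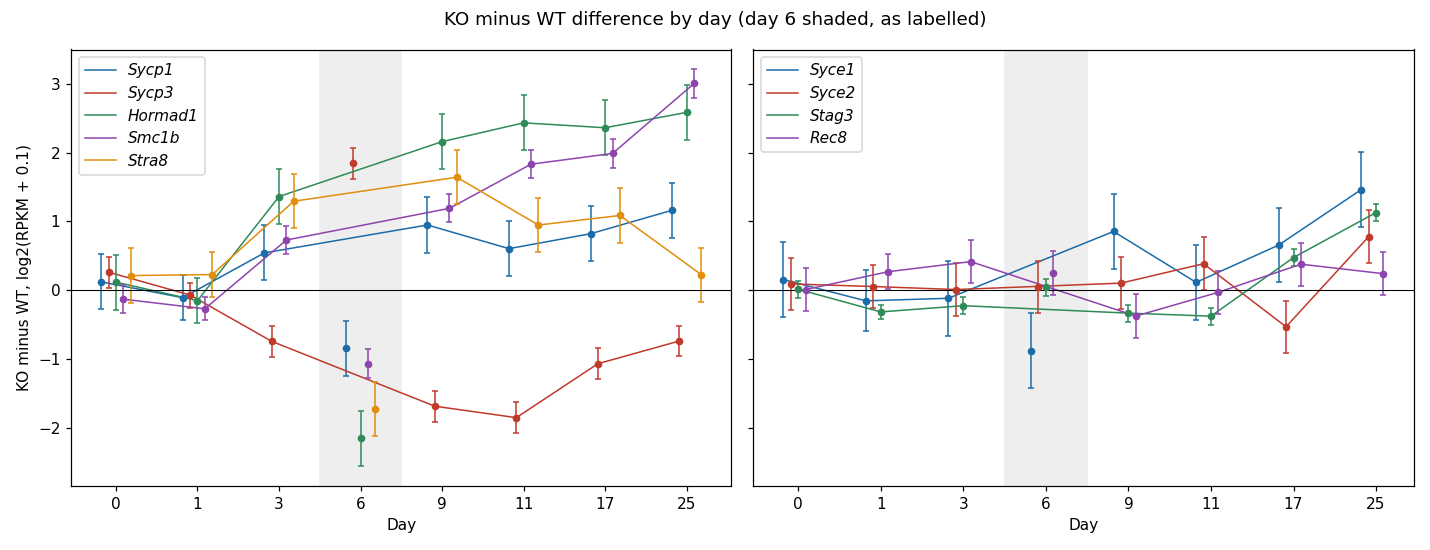
KO minus WT difference in log2(RPKM + 0.1) by day for the 9 genes that passed the filter on low values, as point and SE from a linear model of all 34 WT and KO libraries; lines skip day 6, which is shaded and shown as labelled. In the left panel *Hormad1* reached 2.59 and *Smc1b* 3.01 at day 25 while *Sycp3* lay lowest at day 11 at -1.86, and in the right panel *Syce1*, *Syce2*, *Stag3* and *Rec8* lay nearer to 0 or on both sides of it.

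The other members did not keep one direction. *Stag3*, the meiotic cohesin subunit beside *Rec8*, lies on chromosome 5 from 138721468 to 138753621 on the plus strand (ENSMUSG00000036928.8). WT libraries had 3.04 and 3.08 RPKM at day 3, 2.93 and 3.34 at day 9, 4.66 and 4.83 at day 11, 1.58 and 1.74 at day 17, then 1.6 and 1.61 at day 25. KO libraries had 2.70 and 2.51 RPKM at day 3, 2.36 and 2.57 at day 9, 3.40 and 3.87 at day 11, 2.26 and 2.44 at day 17, then 3.85 and 3.44 at day 25. KO was therefore lower at days 3, 9 and 11 and higher at days 17 and 25, in each case without overlap. The difference averaged 0.13 (SE 0.056), went from -0.38 at day 11 to 1.13 at day 25 (SE 0.125 each), and averaged -0.12 without day 25.

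*Syce1* (chromosome 7 from 147963128 to 147973753, minus strand, ENSMUSG00000025480.4), a central element gene, was apart at days 9, 17 and 25. It had 0.880 and 0.844 RPKM in WT and 1.90 and 1.41 RPKM in KO at day 9. At day 17 it had 4.37 and 3.35 RPKM in WT and 5.75 and 6.44 in KO, and at day 25 3.55 and 3.08 in WT and 9.65 and 8.95 in KO. At day 3 (0.713 and 0.723 against 0.553 and 0.769 RPKM) and day 11 (2.86 and 2.22 against 2.72 and 2.75 RPKM) the groups overlapped. The average difference of 0.59 (SE 0.243) fell to 0.38 without day 25.

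*Syce2* (chromosome 8 from 87396010 to 87412120, plus strand, ENSMUSG00000003824.6), whose product joins SYCE1 in the central element, had the highest RPKM of the 10 genes in every WT and KO library. It had 10.05 and 9.62 RPKM in WT and 9.47 and 10.3 RPKM in KO at day 3, and 11.14 and 11.18 in WT against 11.18 and 12.9 RPKM in KO at day 9. At day 11 it had 18.9 and 19.4 RPKM in WT and 30.7 and 20.4 in KO, at day 17 31.7 and 26.8 in WT and 19.3 and 20.9 in KO, and at day 25 16.5 and 16.4 in WT and 29.1 and 27.5 in KO. The direction at day 17 was thus opposite to that at days 11 and 25, and the average difference was 0.15 (SE 0.171).

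*Rec8*, which replaces the cleavable cohesin subunit *Rad21* in meiosis, lies on chromosome 14 from 56236874 to 56244232 on the plus strand (ENSMUSG00000002324.7). WT libraries had 1.43 and 1.44 RPKM at day 3, 1.31 and 1.51 at day 9, 1.61 and 1.27 at day 11, 0.737 and 0.647 at day 17, then 1.59 and 1.25 at day 25. KO libraries had 1.88 and 2.02 RPKM at day 3, 1.02 and 1.1 at day 9, 1.56 and 1.25 at day 11, 0.964 and 0.893 at day 17, then 1.86 and 1.52 at day 25. KO was higher at days 3 and 17 and lower at day 9, and the groups overlapped at days 11 and 25. The average difference of 0.13 was within its SE of 0.141. That SE includes the spread of the mixed day 1 libraries (SD 0.653 RPKM in WT and 0.745 RPKM in KO).

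*Sycp2*, the axis partner of *Sycp3*, had the lowest maximum of the 10 genes and was the only one that did not pass the filter of more than 1 RPKM in at least 2 libraries. It lies on chromosome 2 from 178079998 to 178142390 on the minus strand (ENSMUSG00000060445.5) and never exceeded 0.457 RPKM. WT libraries had 0.423 and 0.457 RPKM at day 11, 0.260 and 0.309 at day 17, then 0.0893 and 0.0679 at day 25. KO libraries had 0.304 and 0.166 RPKM at day 11, 0.374 and 0.334 at day 17, then 0.304 and 0.317 at day 25. KO was lower at day 11 and higher at days 17 and 25 without overlap, on 11 to 105 reads per WT library over all days.

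At day 0 *Dnmt1* RNA was not lower in the libraries labelled KO, and the differences of the 9 filtered genes ranged from -0.13 to 0.26. At day 1, when *Dnmt1* RNA was lower, these differences ranged from -0.32 to 0.27. KO nevertheless lay above WT without overlap at day 0 for 5 genes (*Sycp3*, *Syce1*, *Syce2*, *Hormad1* and *Stra8*), and below for *Smc1b*. The groups overlapped at day 0 for *Sycp1*, *Sycp2*, *Stag3* and *Rec8*. Groups without overlap on a single day thus also arose where *Dnmt1* RNA was not lower. Only *Stag3* was apart at day 1, with KO below WT. At day 1 the third pair of libraries stood apart from the first and second, as the share of reads in genes also did. *Hormad1* had 1.22, 1.46 and 4.77 RPKM in WT and 1.32, 1.49 and 3.13 RPKM in KO. *Syce2* had 11.6, 10.9 and 30.5 RPKM in WT and 11.07, 12.9 and 30.2 RPKM in KO. In the third pair both genes were therefore high in WT and KO alike.

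The level over time in WT is also given as a description, because the WT libraries are the controls of the contrast that chose the genes. From day 11 to day 25, both in high-share libraries, *Smc1b* went from a mean of 1.24 to 0.168 RPKM (difference -2.32, SE 0.206), *Stag3* from 4.75 to 1.61 RPKM (-1.5, SE 0.125) and *Sycp3* from 7.73 to 2.68 RPKM (-1.48, SE 0.224). In each case both day 25 libraries were below both of day 11. These 3 of the 9 genes were under the limma threshold, as were 13.9% of all genes tested in this direction and 14.8% in the other, and nothing is read from the count. *Sycp1* (0.26), *Syce1* (0.38), *Syce2* (-0.22), *Hormad1* (-0.10), *Rec8* (-0.02) and *Stra8* (0.37) were not past it.

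From day 0 to day 9, both in low-share libraries, the count of called genes among the 9 was 0 by limma and 0 by voom on reads recovered from the RPKM, with 3 at an unadjusted p below 0.05. The background by limma was 0.0517% higher and 0.043% lower, and nothing is read from these counts. Those 3 were *Stag3* (2.04 to 3.13 RPKM, difference 0.59, SE 0.125), *Smc1b* (0.437 to 0.733 RPKM, 0.63, SE 0.206) and *Stra8* (1.15 to 0.474 RPKM, -1.15, SE 0.396). Without the third pair of day 1 in the fit, these 3 and *Syce1* passed, so 4 were called. The share of all genes called in that fit is not given here, so nothing is read from that count either.

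The mitotic paralogs of the meiotic cohesin subunits gave a reference on the same RPKM scale. *Smc1a*, *Rad21*, *Stag1* and *Stag2* are the subunits used in dividing somatic cells, and their KO minus WT means over the 5 days were -0.10, -0.12, 0.17 and -0.24, none called by limma (adjusted p 0.482, 0.830, 0.654 and 0.340). Without the third pair of day 1 all 4 were called, at the same size and in the same directions. The share of all genes called in that fit is not given here, so nothing is read from these calls. *Smc1b* was 6.90% to 9.11% of *Smc1a* in WT and 19.3% to 23.4% in KO at day 9, and 1.51% to 1.72% in WT and 17.05% to 18.9% in KO at day 25. *Rec8* stayed at 2.60% to 3.27% of *Rad21* in WT and 3.2% to 3.75% in KO at day 25, where the groups overlapped. *Stag3* was 15.9% to 16.1% of *Stag2* in WT and 21.8% to 29.2% in KO at day 25, and 45.4% to 54.1% against 46.2% to 52.6% at day 9. Against *Stag1*, *Stag3* was at 95.7% to 110.7% in WT and 75.3% to 83.6% in KO at day 9, and at 18.2% to 18.5% in WT and 28.7% to 33.9% in KO at day 25. The meiotic form was thus the lower one of each pair at days 9 and 25 except for *Stag3* against *Stag1* in WT at day 9.

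**Figure D3:**
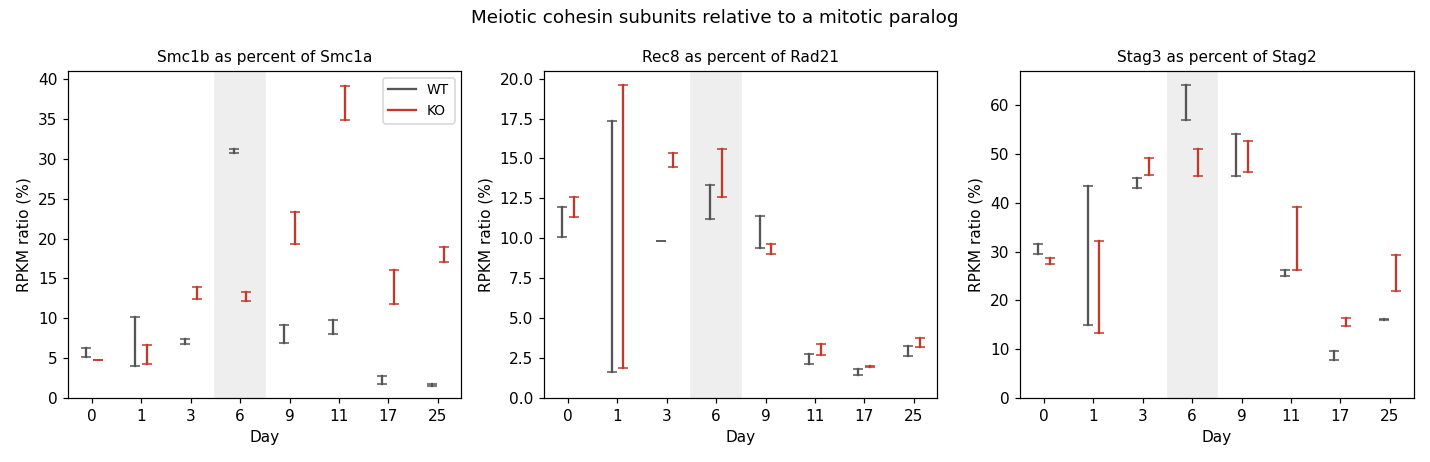
RPKM of a meiotic cohesin subunit as a percentage of a mitotic paralog by day, each bar spanning the lowest to the highest library of WT (grey) or KO (red), day 6 shaded. *Smc1b* reached 34.9% to 39.2% of *Smc1a* in KO at day 11 against 8.0% to 9.80% in WT, while *Rec8* stayed below 4% of *Rad21* in all groups from day 11 on.

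Other genes of the meiotic programme and its surroundings were tested for KO minus WT over the 5 days by limma with Benjamini-Hochberg adjustment over all 11615 genes. Of 99 genes in 7 lists, 66 passed the filter on low values, and 17 of them were higher and 3 lower, against a background of 13.2% higher and 5.75% lower. The median difference of the 66 was 0.056, the same as over all genes (0.056). Of the 17, *Hormad2* and *Tex12* passed the filter only through KO libraries, and a gene that passes only through the group where it is high had to differ. The split depended on settings: with each library centred on its median it was 20 higher and 19 lower, and without the third pair of day 1 it was 29 higher and 20 lower. The lists were drawn up with earlier results of these data known and do not support each other.

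Of 5 tested genes of the synaptonemal complex and axis outside the 10, a pair was called, *Hormad2* and *Tex12*. *Hormad2*, the second HORMA-domain axis gene, was above 1 RPKM in 7 KO libraries and 0 WT libraries, with a difference of 2.27 (SE 0.153). *Tex12*, a central element gene, was above 1 RPKM in 2 KO libraries and 0 WT libraries, with a difference of 1.99 (SE 0.212). At day 25 *Tex12* averaged 0.0270 RPKM in WT and 2.15 RPKM in KO, with *Hormad2* at 0.165 and 1.4 RPKM. The list median was 0.30. *Syce3* (0.30), *Six6os1* (0.21) and *Tex11* (-0.34) were not called. At day 25 alone, 4 of the 5 were higher, against a background of 9.6% of all genes tested. *Hormad2* and *Tex12* were among them and had passed the filter only through KO libraries, so nothing is read from this count.

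Recombination genes were split. Of 13 tested, 4 were higher and 1 lower, with a median of 0.08. *Rec114*, which acts with the machinery that makes meiotic DNA breaks, was higher by 1.55 (SE 0.108, limma adjusted p 1.789e-10) and reached 7.77 RPKM in KO against 1.03 in WT at day 25. *Hsf2bp*, a partner of BRCA2 in meiosis, was higher by 1.09 (SE 0.158), and its partner *Brme1* by 0.50 (SE 0.123), or by 0.24 without day 25, where it was not called. *Tex15*, needed for meiotic repair, was higher by 0.46 (SE 0.123) over the 5 days. Its increase rested on day 25 (11.16 against 1.89 RPKM), and without that day its mean difference was -0.04. *Dmc1*, the meiotic strand exchange recombinase, was lower, with a difference of -0.35 (SE 0.0824, limma adjusted p 0.003367). For attachment of telomeres to the nuclear envelope, *Sun1* (0.12, adjusted p 0.217) and *Spdya* (0.17, adjusted p 0.626) were not called.

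Of 8 regulators of meiotic entry and germ cells, 4 were higher, with a list median of 0.46. *Dazl*, an RNA-binding protein that licenses germ cells for meiosis, was higher by 1.98 (SE 0.0815, limma adjusted p 1.323e-14) and averaged 12.3 RPKM in KO and 0.428 RPKM in WT at day 25. *Sohlh2*, a germ cell bHLH factor, was higher by 1.54 (SE 0.0970), *Taf7l*, a germ cell TFIID subunit, by 1.06 (SE 0.166) and *Nanos3*, a factor of primordial germ cells, by 0.68 (SE 0.164). The 7 primordial germ cell markers, which include *Nanos3* and *Ddx4* of this list, were also higher in KO as a sum. They summed to 14.5 to 14.8 RPKM in KO and 12.4 to 13.2 RPKM in WT at day 9, 44.9 to 52.4 against 37.2 to 39.2 RPKM at day 11, 49.8 to 56.5 against 32.7 to 33.8 RPKM at day 17 and 36.1 to 36.6 against 21.8 to 23.0 RPKM at day 25. The sum in KO was thus above WT without overlap on those 4 days, while the groups overlapped at day 3. *Ddx4* itself went the other way, with a mean difference of -0.23 over the 5 days that was not called. The part of such cells in these results and in those of the 10 genes was not tested.

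The last 3 lists cover cohesin, repressors and retinoic acid. Of 16 mitotic cohesin genes 1 was called, *Espl1* (separase), with a difference of -0.35 (SE 0.0987) that was -0.11 without day 25, and the list median was -0.08. Of 13 genes of PRC1.6 and of H3K9 methylation, 1 was called, the PRC1 subunit gene *Yaf2*, at 0.36 (SE 0.0844), with a list median of 0.04. The retinoic acid list had 6 of 9 higher and 1 lower, with a median of 0.40. Its higher genes included the retinoid-binding proteins *Crabp1* (0.80, SE 0.119) and *Crabp2* (0.40, SE 0.0839) and the receptor *Rxra* (0.61, SE 0.0907). *Cyp26a1*, which degrades retinoic acid, was called at 0.74 (SE 0.260, limma adjusted p 0.0483), and the call was lost in 16 of the 20 fits that left out 1 library. The receptor gene *Rara* was lower at -0.52 (SE 0.143), and at -0.32 without day 25 it was not called. Leaving out day 25 also ended the calls of *Yaf2* and *Crabp2*, day 17 those of *Dmc1* and *Brme1*, day 11 that of *Nanos3* and day 9 that of *Crabp2*.

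**Figure D4:**
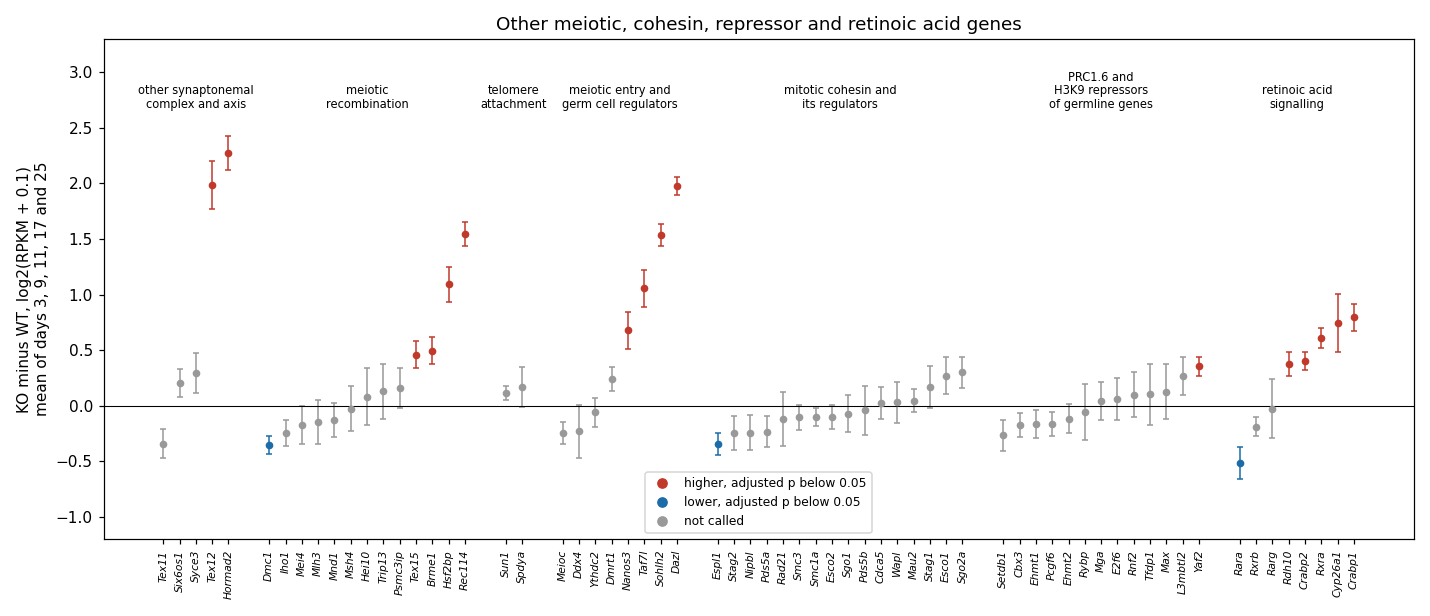
KO minus WT difference in log2(RPKM + 0.1), mean over days 3, 9, 11, 17 and 25, for tested genes of the 7 lists; points with SE, coloured by direction where the limma adjusted p was below 0.05. The highest points are *Hormad2* at 2.27, *Tex12* at 1.99 and *Dazl* at 1.98, and the 3 lower calls are *Dmc1*, *Espl1* and *Rara*. *Hormad2* and *Tex12* passed the filter on low values only through KO libraries.

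The same lists were read by day. At day 9, 5 genes were higher, against a background of 2.46% higher and 0.827% lower, at day 11, 8 were higher and 2 lower (background 4.37% and 1.26%), at day 17, 9 higher and 2 lower (9.13% and 1.23%), and at day 25, 18 higher and 3 lower (9.6% and 11.3%). *Hormad2*, *Rec114*, *Dazl* and *Sohlh2* were among the higher genes on each of these 4 days. *Hormad2*, and *Tex12*, which is counted at days 11, 17 and 25, had passed the filter only through KO libraries and so had to differ. At day 3 the count by limma was 0, with 7 genes at an unadjusted p below 0.05 and 1 called by voom, against a background of 0.603% higher and 0.0603% lower. In the libraries of day 6 as labelled, 6 genes were lower (background 0.68% higher and 2.16% lower). These daily counts depended on the fit, and without the third pair of day 1 they were 11, 25, 32, 32 and 42 genes at days 3, 9, 11, 17 and 25. The share of all genes called in that fit is not given here, and nothing is read from the daily counts.

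Members that moved together over libraries are given as a description. Over 17 KO minus WT pairs with the same day and replicate number, including day 6 as labelled, *Hormad1* correlated with *Sycp1* (Pearson r 0.914) and *Smc1b* (0.911) and inversely with *Sycp3* (-0.910). *Sycp3* and *Stra8* gave -0.848, and the 36 pairs of members ranged from -0.910 to 0.914 with a median of 0.268. The points share days and the contrast that chose the genes, and apart from days 1 and 11 the numbers were not seen to pair the libraries. The genes most like *Sycp3* among all tested were *Zfp334* (0.941), *Tagap1* (0.938) and *Ttc23* (0.938). Those most like *Hormad1* were *Ube2l6* (0.988), *Cd200* (0.986) and *Ctnnal1* (0.985), and those most like *Smc1b* were *Fmr1nb*, *Asz1* and *Ccdc152* (0.975 each). For *Sycp1* the nearest was *Apoc2* (0.941), for *Stra8* *Fam129b* (0.963), for *Syce1* *Gm11768* (0.951), for *Syce2* *Nup43* (0.962), for *Stag3* *4933411K20Rik* (0.965) and for *Rec8* *Ikbkb* (0.836).

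The library without *Dicer*, the enzyme that cuts small RNAs from double-stranded RNA, had no replicate. Its *Dnmt1* alleles were floxed, and its *Dnmt1* RNA was at 34.8 RPKM, about as high as in the highest WT library. *Sycp3* had 0.614 RPKM there, below all 17 WT libraries (1.01 to 8.66 RPKM). *Stra8* had 0.0646 RPKM, on 3 reads, *Rec8* 0.381 RPKM and *Syce2* 6.39 RPKM, each also below all WT libraries. *Sycp1* (2.18 RPKM) and *Stag3* (6.93 RPKM) were above them all, and the other 4 genes lay within the WT range. Against the 7 high-share WT libraries 6 genes were below, 2 above and 2 within. The 17 WT libraries include those of day 6, whose labels *Dnmt1* RNA contradicted. The share of all genes outside these ranges was not computed, so nothing is read from the counts. Fibroblast markers summed to 51.7 RPKM in this library, against 1.39 to 3.88 RPKM in high-share and 7.59 to 12.7 RPKM in low-share WT libraries, with *Col1a1* among those at 1 RPKM or more, and their part in these levels was not tested.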

How the data were processed

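Total RNA was depleted of ribosomal RNA and sequenced in pairs from stranded libraries. According to the methods of the study and the submitters' processing notes, the authors trimmed reads with Trim Galore 0.3.5, aligned them with TopHat2 2.0.11 to NCBIM37, discarded reads with a mapping quality below 20 and quantified genes in SeqMonk. The deposited values are RPKM on a linear scale, whereas the methods name log2 RPM, so tests planned for log2 values were run on log2(RPKM + 0.1), on which low genes appear to change less than they do. Gene calls that the authors made with DESeq2 and an intensity filter were not used.

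Genes above 1 RPKM in at least 2 of the 34 WT and KO libraries were kept (11615 of 26127). Group means were modelled in R 4.3.3 by limma 3.58.1 (eBayes with a trend after lmFit), with Benjamini-Hochberg adjustment over all genes tested and a threshold of 0.05. In the main fit all groups share the spread, so the mix of low-share and high-share libraries at day 1 enters every SE and p-value. Functions were tested on simulated data. Reads were recovered from the RPKM with GENCODE vM1 exon lengths, which matched 99.9% of genes, and 99.53% to 99.74% of values below 20 reads came out whole within 0.1. Between 5.2 and 18.0 mega-reads per library fell in exons of genes, which limits the precision of low genes. Read numbers reflect counting error alone, as no molecular identifiers are described. Promoter windows came from RefSeq (GRCm38.p6) and were read in NCBIM37 by exact match. Python 3.11.15 with pandas 2.3.3 was used for these steps.

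The 10 genes and the 7 lists were chosen with earlier results of these data known. By rule, the text names all 10 genes, *Dnmt1*, *Smc1a*, *Rad21*, *Stag1* and *Stag2*, up to 6 called genes per list by size of the mean difference, and the 3 genes most like a member; of these, 1 list gene is not reported here; named beyond it, after their values were seen, are *Syce3*, *Six6os1*, *Tex11*, *Sun1* and *Spdya*. Alternatives were 2 other pseudocounts, no filter, median centring, voom, a replicate block, only the groups compared, other sets of days, and each library left out.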

Additional observations from a re-analysis of the deposited data

Results flagged for a closer look

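In the libraries of day 6 as labelled, 5 genes moved against their direction at the other days, where every KO library of day 3, 9, 11 and 17 was on the other side of WT. The KO minus WT differences in log2(RPKM + 0.1) were -0.84 for *Sycp1*, 1.85 for *Sycp3*, -2.16 for *Hormad1*, -1.07 for *Smc1b* and -1.73 for *Stra8*. *Dnmt1* RNA was also opposite at that day, with 3.22 to 3.40 RPKM in the libraries labelled WT and 20.2 to 20.4 RPKM in those labelled KO. The difference from the other days was not tested.

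For 4 genes every KO library lay above WT at some days and below WT at others. *Stag3* gave 0.48 at day 17 and 1.13 at day 25, but -0.23 at day 3, -0.33 at day 9 and -0.38 at day 11. *Sycp2* gave 0.24 at day 17 and 1.2 at day 25, but -0.72 at day 11, on levels that never exceeded 0.457 RPKM. *Syce2* gave 0.39 at day 11 and 0.78 at day 25, but -0.53 at day 17. *Rec8* gave 0.42 at day 3 and 0.38 at day 17, but -0.38 at day 9. These differences between days were not tested, and with 2 libraries a group they rest on few values. The share of all genes that did the same was not computed, so nothing is read from the count.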

How the results depend on the processing

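Directions of the 10 genes over the 5 days (9 positive, *Sycp3* negative) held under every change of scale, filter or fit and in all 20 fits without 1 library. With days 3 and 9 only, 7 were positive and *Stag3* reversed to -0.28. Without day 25, an alternative chosen after seeing the data, 6 were positive and *Stag3* was -0.12. *Brme1* (listed as *4930432K21Rik*) reversed to -0.068 with days 3 and 9 only and *Tex15* to -0.035 without day 25. Days 3 and 9 alone left 6 list genes higher and 0 lower, and day 6 included as labelled left 0 lower (limma, as in all fits).

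Counts of list genes depended on the fit (main values 17 higher and 3 lower over the 5 days, and 0, 5, 10, 11 and 21 called at days 3, 9, 11, 17 and 25). Without the third pair of day 1 they were 29 and 20, then 11, 25, 32, 32 and 42. With only the groups compared they were 27 and 18, then 17, 31, 5, 23 and 41. With median centring 19 were lower, and 3, 12, 19, 24 and 32 were called by day. Without a filter 17 were called at day 17, and at day 3 a pseudocount of 1 or voom gave 1. The cause of these moves was not tested. For fits in this section other than the main one, the share of all genes called is not given. Nothing is read from their counts. Among members, WT day 9 minus day 0 gave 4 calls without the third pair of day 1 and 4 with only the groups compared.

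With a replicate block, the counts were 28 higher and 19 lower, then 8, 25, 30, 32 and 42. Deviations of same-numbered libraries correlated between -0.159 and 0.913, with 5 of 17 above 0.1. Those 5 were the 3 pairs of day 1 (0.775 to 0.913) and both of day 11 (0.26), so the numbers may pair libraries on those days. With 2 libraries a group both pairs must give the same r, as at day 11. At day 1 the third pair was high-share and the others low-share, which cannot be told apart from pairing. On the other days pairing was not seen (-0.159 to 0.0873).

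Leaving out 1 library, day 11 gave 2 to 7 list calls, day 17 gave 6 to 8 and day 25 gave 16. The lowest count at day 11 came without replicate 1 of WT, and at day 17 without replicate 2 of KO. Apart from these daily counts, of 1012 single results (genes and lists over the 5 days, and WT over time) under these fits 995 stayed on their side of the threshold and 16 lost a call, all of *Cyp26a1*. Without day 25 the differences were 0.24 for *Brme1*, -0.11 for *Espl1*, 0.27 for *Yaf2*, -0.32 for *Rara* and 0.26 for *Crabp2*, none called. *Dmc1* (-0.24) and *Brme1* (0.38) lost their calls without day 17, *Nanos3* (0.50) without day 11 and *Crabp2* (0.26) without day 9. Depth limits *Sycp2*, and *Stra8* in *Dicer* KO cells rests on 3 reads.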
